A study of Raphidocelis subcapitata with 45 samples.

Results

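Of the 7291 genes measured in the green alga Raphidocelis subcapitata, 84 (1.15%) were near their control level at 784 and 1960 µg/L sertraline and above it at 4900, 12249 and 30623 µg/L. These 84 genes were chosen by their measured values. The difference of the group mean from the control mean had to be under 0.4 in size at 784 and at 1960 µg/L, and at least 0.8 at each of the 3 higher concentrations, on the log2 scale of the table. Their change in these 5 comparisons is therefore fixed by the choice and is given as a description, without a test. The identifiers carry no product names in the table, and no annotation was used here, so the genes are described by level and course and only 2 are named.

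The alga, sold by Carolina Biological per the labels, was grown in Woods Hole MBL medium under constant light and exposed in exponential growth for 24 h in shaken deep-well plates. The 9 groups were a solvent control and sertraline hydrochloride at 8 nominal concentrations (50, 125, 314, 784, 1960, 4900, 12249 and 30623 µg/L), and every well held solvent. Its content, and the rounding of the top concentrations, differ between the series text and the sample labels, so no solvent content is printed and the concentrations follow the labels. Each group had 5 libraries, lettered A to E, except 12249 µg/L (A, B and C) and 30623 µg/L (A, C and D), which had 3 each. The labels list 5 libraries for these groups too, and the other 4 (D and E at 12249 µg/L, B and E at 30623 µg/L) have no column in the table used and were not analysed here. RNA came from homogenates pooled over plates, and the labels name no separate cultures, so a p-value here covers only how far these libraries scatter, and that scatter may be technical.

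Raphidocelis subcapitata is a single-celled freshwater alga used as a standard species in growth inhibition tests. Sertraline is an antidepressant that blocks the serotonin transporter of mammalian neurons. It is also a cationic amphiphilic compound, a class that partitions into membranes and collects in acidic compartments of animal cells. A library primed on poly(A) tails reports mainly transcripts of nuclear genes, as shares of all transcripts. A gene that gained transcripts and a gene that kept them while others were lost cannot be told apart in such values.

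The values ran from 1.19 to 12.6, and the library medians from 4.55 to 4.73. The median deviation of all 7291 genes from their control means lay between -0.05 and 0.02 in every library.

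The 84 genes ranged from weakly to strongly expressed. Their control level had a median of 4.45 with quartiles of 3.50 and 5.32, and the lowest and highest were 2.49 and 8.33. Over all 7291 genes the median was 4.58, with quartiles of 3.78 and 5.60. By terciles of the control level over all genes, 36 of the 84 fell in the lowest, 25 in the middle and 23 in the highest. For comparison, a set of 147 genes under 0.4 in size at 784 µg/L and at least 0.8 at each concentration from 1960 µg/L up had a median control level of 3.54, and 95 of them lay in the lowest tercile. A set of 94 genes under 0.4 in size at 784, 1960 and 4900 µg/L and at least 0.8 at 12249 and 30623 µg/L had a median of 4.39. The control libraries enter all 3 definitions, and the differences in level between the sets were not tested.

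**Figure D1:**
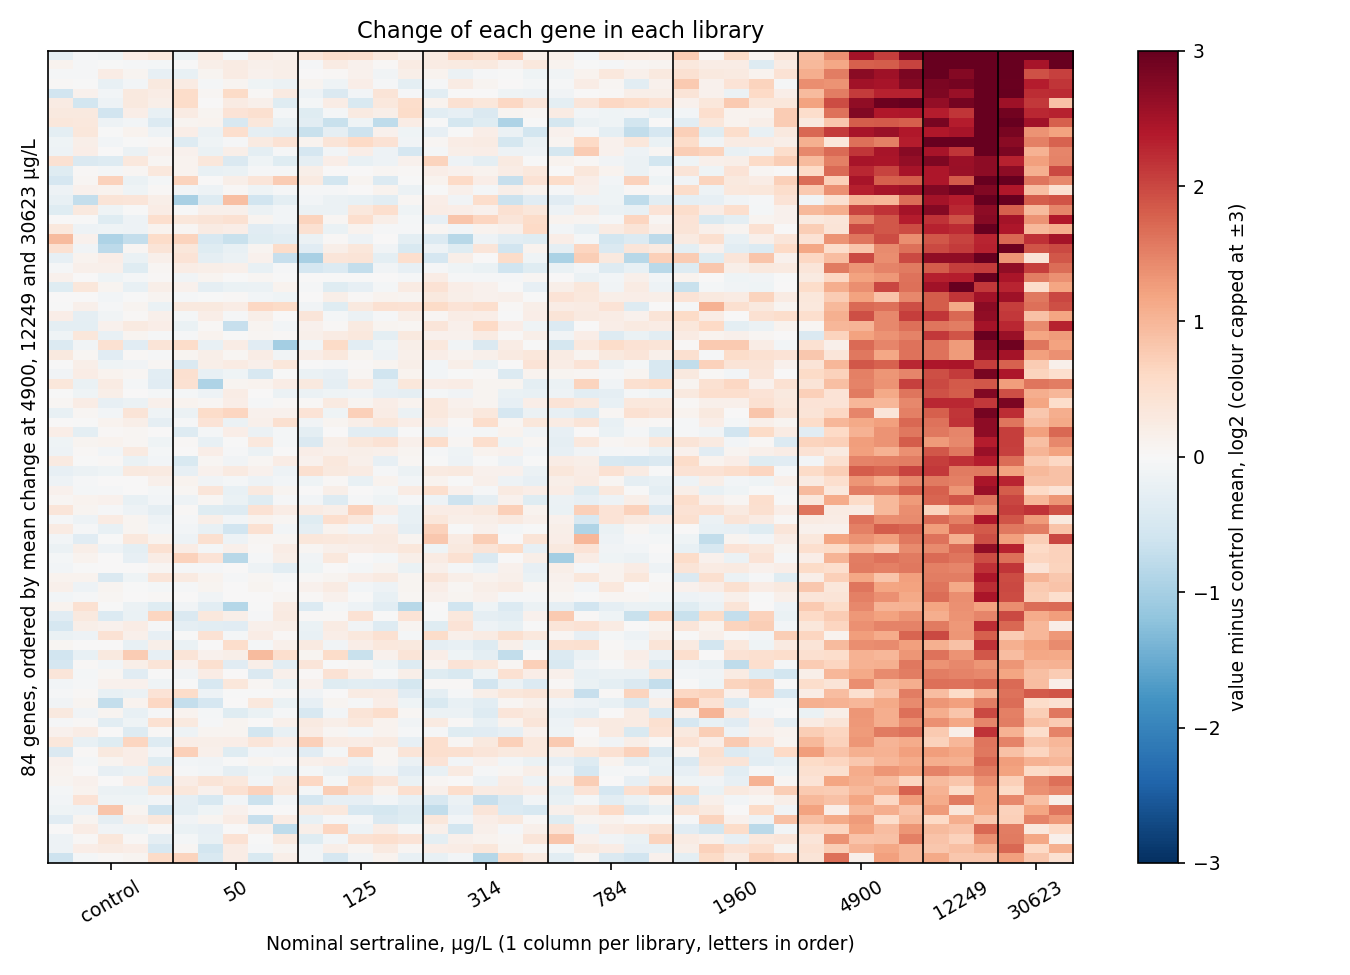
Each row is 1 of the 84 genes and each column 1 of the 41 libraries, grouped by nominal sertraline in µg/L; colour is the value minus the gene's control mean on the log2 scale, capped at ±3. The rows turn red from 4900 µg/L on, more weakly in replicates A and B of that group than in C, D and E, and the deepest columns are replicate C of 12249 µg/L and replicate A of 30623 µg/L, with medians of 2.34 and 1.96.

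None of the libraries at 50, 125 and 314 µg/L entered the choice of these genes, so differences among these groups could be tested. No difference was found in the 84 genes. In limma's moderated F test over the 3 groups with Benjamini-Hochberg adjustment, 0 of the 84 genes passed, and the smallest adjusted p was 1.00. Of all genes, 25 (0.343%) passed. At an unadjusted p under 0.05, 1 of the 84 genes and 198 of all genes (2.72%) passed. With only these 3 groups in the limma fit, 7 of the 84 and 637 of all genes had an unadjusted p under 0.05, and 0 of the 84 passed after adjustment (smallest adjusted p = 0.322). In the single comparisons, 0 of the 84 genes were called between 125 and 50 µg/L (0% of all genes), 0 between 314 and 125 µg/L (0% of all genes) and 0 between 314 and 50 µg/L (0.398% of all genes).

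The differences among these low groups were small beside the error of the fit of all 9 groups. Between 314 and 50 µg/L the 84 genes had a median difference of 0.05 on the log2 scale, with extremes of -0.61 and 0.40, and 54 of them were higher at 314 µg/L. Between 314 and 125 µg/L the median was 0.07 and the extremes were -0.37 and 0.38. The median standard error of such a difference was 0.22. This error uses a spread shared by all 9 groups, and these genes scattered more at high concentrations. Their median SD was 0.24, 0.22 and 0.23 at 50, 125 and 314 µg/L, against 0.54 at 4900 and 0.58 at 30623 µg/L. The 0.22 is therefore larger than the scatter of the low groups alone would give. A change of 0.5 would often be missed at this precision, so small changes at these concentrations could have gone undetected in this fit.

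Against the control, whose libraries the rule did use, the 84 genes had a median difference of 0.00 at 50 µg/L and of 0.06 at both 125 and 314 µg/L. It was 0.04 at 784 µg/L. At 50, 125 and 314 µg/L, where the rule sets no limit, 82, 84 and 80 of the 84 genes were within 0.4 of the control. Of all genes, 97.3%, 95.4% and 93.2% were within it.

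At 1960 µg/L the genes were not spread evenly about their control level. The rule limits the size of the difference there and not its sign. Of the 84 genes, 65 (77.4%) were above the control mean, and the median difference was 0.21, with quartiles of 0.03 and 0.32. Of all genes 49.9% were above it. Other sets of genes that were high later differed in this lean. Of the 747 genes at least 0.8 above the control at both 12249 and 30623 µg/L, of which the 84 are a part, 82.2% were above the control mean at 1960 µg/L, with a median of 0.44. The 747 genes have no limit at 1960 µg/L and include the 147 chosen for being at least 0.8 above the control there. The 94 genes, under the same limit at 1960 µg/L as the 84, showed no such lean there. Of them 47.9% were above the control mean, with a median of -0.03. They did lean upward under their own limit at 4900 µg/L, with 83.0% above the control mean and a median of 0.23. Within the 84, the median was 0.16 in replicate A, 0.15 in B, 0.15 in C, 0.19 in D and 0.15 in E. All 5 values lay above those of the 20 libraries from 50 to 784 µg/L, which reached 0.11 at most. For 26 of the 84 genes the difference was between 0.3 and 0.4, close under the limit. In limma's test 1 of the 84 genes was called higher at 1960 µg/L, against 9.82% of all genes, a share that the rule itself keeps low. That gene was Rsub_10772, described further on.

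The limit at 1960 µg/L cut through a continuous range of genes. The member nearest to it stood at 0.399 and the nearest gene beyond it at 0.401. In all, 324 genes met the other 4 limits, and 240 of them failed only this one, of which 237 were at 0.4 or more and 3 at -0.4 or less. Of the 240, 36 lay within 0.1 of the limit. At 4900 µg/L the lowest member stood at 0.803 and the nearest gene outside at 0.799, and 195 genes failed only that limit. At 12249 µg/L only 2 genes failed that limit alone, and the lowest member stood at 0.83 against 0.77 outside. At 30623 µg/L 44 did, and the values were 0.81 and 0.78. At 784 µg/L 7 did, with the nearest member at -0.34 and the nearest gene outside at 0.42.

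At 4900 µg/L the 84 genes stood between 0.80 and 2.43 above the control, with a median of 1.08, and 52 of them were at least 1 above it. All 84 were called higher in limma's test, against 14.9% of all genes, and 59 had all 5 treated libraries above all 5 control libraries, against 8.20% of all genes. Both counts follow from the rule and are not evidence for the rise.

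The libraries at 4900 µg/L differed widely in these genes. The median change of the 84 genes was 0.54 in replicate A, 0.73 in B, 1.38 in C, 1.36 in D and 1.59 in E. Replicates A and B were the low ones, and E was the highest. In replicate A 23 of the 84 genes were at least 0.8 above the control mean, in B 36, in C 80, in D 80 and in E 83. Even in replicate A, 62 of the 84 genes exceeded all 5 control libraries, where 30.2% of all genes did. In 41 of the 84 genes at least 1 library was under 0.4, and in 12 all 5 libraries reached 0.8. For 70 genes replicates C, D and E all lay above A and B, an order that 19.3% of all genes showed. This order was looked for after the medians had been seen.

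The spread of a single gene shows the same. At 4900 µg/L the median SD of a gene was 0.54 over the 84 genes and 0.36 over all genes. It was 0.51 over the 147 genes of the set from 1960 µg/L and 0.46 over the 747 genes, so much of the wider spread was shared by other genes with higher values there. In the control it was 0.24 over the 84 genes and over all genes. At 1960 µg/L the 84 genes had 0.30 and all genes 0.32. The mean of the 5 library medians at 4900 µg/L was 1.12 ± 0.46 (SD, n = 5). Without replicate E of 4900 µg/L the median change of the 84 genes there was 0.97, and without replicate A it was 1.21.

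**Figure D2:**
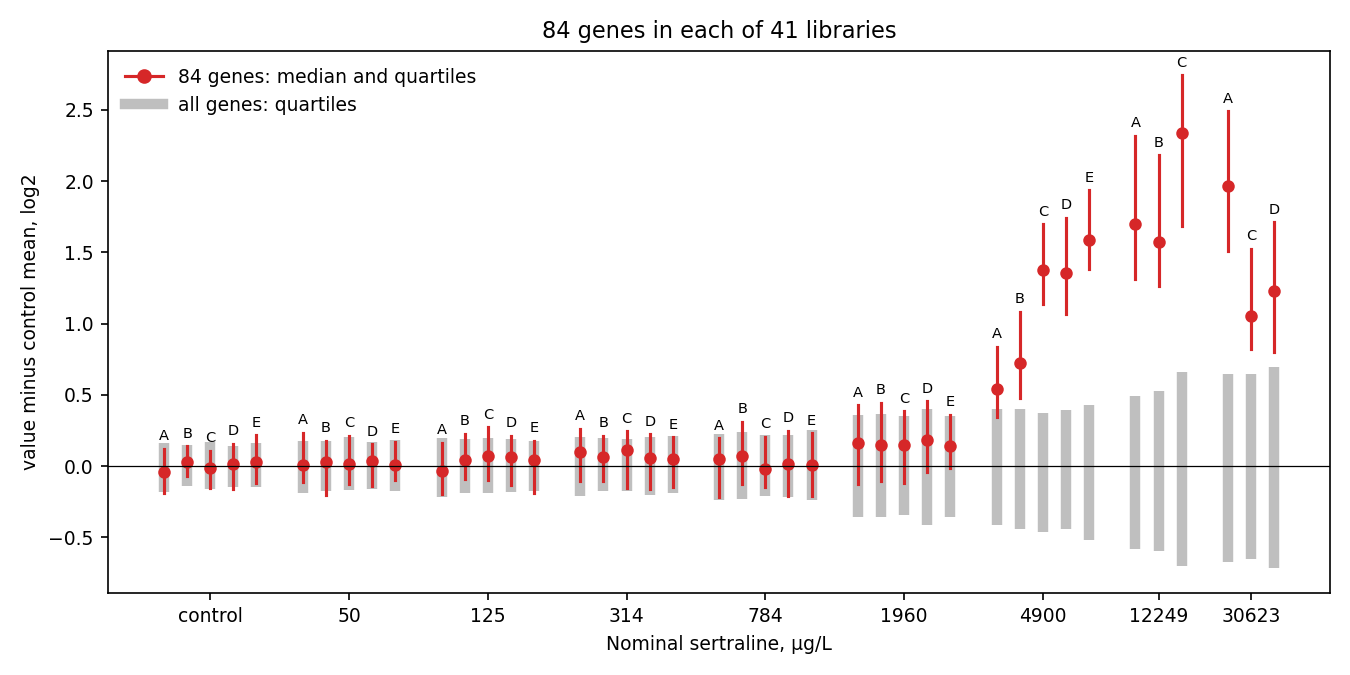
Each point is the median of the 84 genes in 1 library, as the value minus the control mean on the log2 scale, with red lines for the quartiles of these genes and grey bars for the quartiles of all 7291 genes; letters name the replicates. The points stay near 0 up to 784 µg/L, lie at 0.15 to 0.19 at 1960 µg/L and run from 0.54 to 1.59 at 4900 µg/L.

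At 12249 µg/L the median change was 1.88, with a range of 0.83 to 4.47, and 35 of the 84 genes were at least 2 above the control. The median was 1.70 in replicate A, 1.57 in B and 2.34 in C. Replicate C was the highest in 67 of the 84 genes, against 41.9% of all genes. All 84 genes were called higher than the control (23.6% of all genes), and 82 had their 3 libraries above all control libraries (20.9% of all genes), as the rule leads to.

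Between 4900 and 12249 µg/L, the mean of 80 of the 84 genes was higher at 12249 µg/L and that of 4 was lower. Of all 7291 genes 3641 were higher at 12249 µg/L. Among the 147 genes, which have the same floor on both sides of this step, 134 were higher, so the upward step was common there too. Of the 747 genes 714 were higher, but these have no floor at 4900 µg/L, so their choice favours an upward step. The rule sets the same floor on both sides of this step and leaves its direction free, but it uses the same libraries, so no test is given. The median step was 0.74 on the log2 scale, with quartiles of 0.43 and 1.04, and it was at least 0.4 upward in 64 genes. In 29 genes all 3 libraries at 12249 µg/L lay above all 5 at 4900 µg/L, and in the other 55 the libraries overlapped. Of all genes 8.79% were separated in that direction. Expressed as a share of the change at 12249 µg/L, the change at 4900 µg/L had a median of 64.3%, with quartiles of 51.9% and 76.6%, and in 18 genes it was under 50%. The step went with the control level. Its median was 0.50 in the lowest tercile (36 genes), 0.86 in the middle (25 genes) and 0.91 in the highest (23 genes), while over all genes the corresponding medians were 0.04, 0.01 and -0.05. A like order was seen in the 747 genes, which include the 84 and the 147, with medians of 0.56, 0.78 and 0.88. In the 147 the medians were 0.44, 0.76 and 0.75, so only the lowest tercile stood apart. The 94 genes of the set from 12249 µg/L showed no such order, with medians of 0.93, 1.06 and 0.95. Their limits at 4900 and 12249 µg/L force an upward step in every gene. If the transform pulled weakly measured genes towards their mean, changes in the lowest tercile would be understated, which was not tested.

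At 30623 µg/L all 84 genes were above the control by the rule, but most stood below their level at 12249 µg/L. The median change against the control was 1.34, with a range of 0.81 to 3.63. The median was 1.96 in replicate A, 1.06 in C and 1.23 in D. Replicate A was the highest in 66 of the 84 genes, against 39.7% of all genes. All 84 were called higher than the control (25.8% of all genes), and 77 had their 3 libraries above all control libraries (19.4% of all genes). Without replicate A of 30623 µg/L, 73 of the 84 were called and the median was 1.16.

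Of the 84 genes, 69 (82.1%) had a lower mean at 30623 than at 12249 µg/L, and the median difference was -0.53, with quartiles of -0.77 and -0.14. The difference was at least 0.4 downward in 49 genes and at least 0.4 upward in 2. Of all genes 49.2% were lower at 30623 µg/L. Among the 747 genes 53.1% were lower at 30623 µg/L and the median difference was -0.04. The share was 61.2% in the 147 genes of the set from 1960 µg/L and 47.9% in the 94 of the set from 12249 µg/L. These shares are descriptions, since genes are not replicates and the sets share their libraries.

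The libraries overlapped in most genes at this step. In 17 of the 84 genes the 3 libraries at 30623 µg/L all lay below the 3 at 12249 µg/L (10.6% of all genes), in 3 they all lay above (12.4% of all genes), and in 64 they overlapped. Single libraries moved both the median and the count of this step. The median of -0.53 was -0.33 without replicate C of 12249 µg/L, -0.34 without D of 30623 µg/L and -0.81 without A of 30623 µg/L. The count of genes lower at 30623 µg/L moved less. It was 55 (65.5%) without replicate C of 12249 µg/L and 60 (71.4%) without replicate C of 30623 µg/L, while 306 and 323 of the 747 genes were then lower. It was 76 (90.5%) without replicate A of 30623 µg/L, where 452 (60.5%) of the 747 genes were lower. With each of the 6 libraries left out in turn, the share in the 84 genes stayed above that in the 747.

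The direction of this step went with the control level, in these genes and in the table as a whole. Of the 23 genes in the highest tercile of control level, all were lower at 30623 than at 12249 µg/L, as were 23 of the 25 in the middle tercile and 23 of the 36 in the lowest. The medians were -0.65, -0.73 and -0.12. Over all genes 72.4%, 46.6% and 28.5% were lower in these terciles. Across the 84 genes the control level and this step had a Spearman rho of -0.34 and a Pearson r of -0.28, against -0.43 and -0.40 across all 7291 genes. Genes share the libraries and are not independent replicates, so these values describe the table only.

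**Figure D3:**
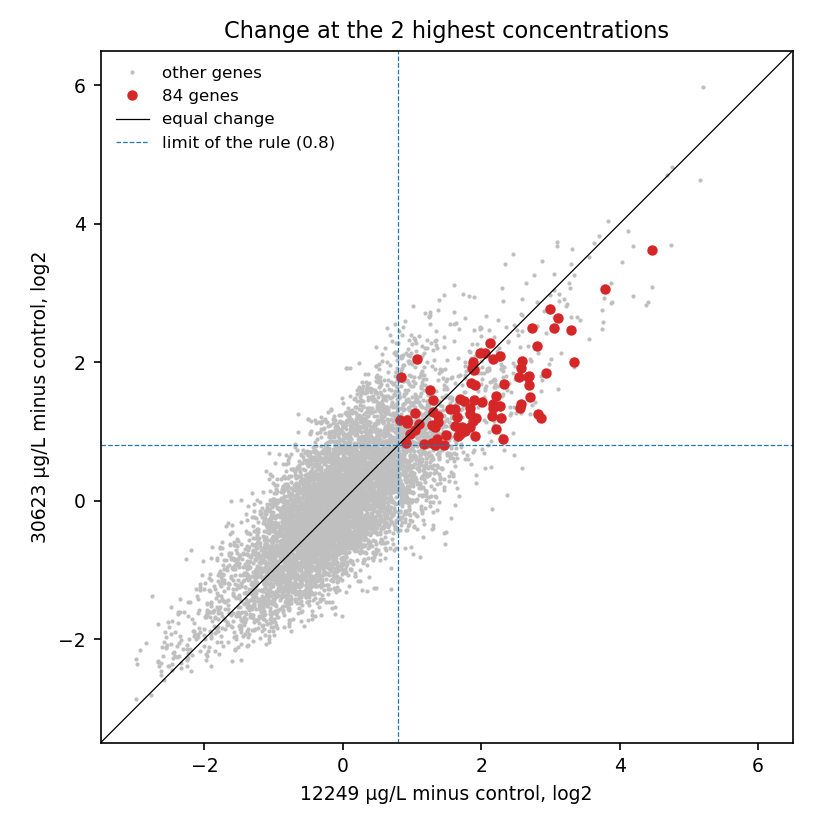
Each point is 1 gene, with its mean change against the control at 12249 µg/L on the horizontal and at 30623 µg/L on the vertical axis, both on the log2 scale; red points are the 84 genes, grey points the rest, the black line marks equal change and the dashed lines the limit of 0.8. Of the red points 69 lie below the line of equal change.

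By the order of their means, the courses above 1960 µg/L fell into few kinds. In 67 of the 84 genes the mean was highest at 12249 µg/L, in 15 at 30623 µg/L and in 2 at 4900 µg/L. In 13 genes it was higher at each step. In 24 genes the mean at 30623 µg/L was below that at 4900 µg/L, although it stayed at least 0.8 above the control. By these values the genes were kept above the limit of 0.8 rather than at the level first reached.

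Rsub_05016, a gene of middling control level, had the highest mean change of the 84. It stood at 3.97 in replicate A, 4.19 in B, 4.13 in C, 4.47 in D and 4.56 in E of the control. At 1960 µg/L its values were 5.02, 4.33, 4.83, 4.35 and 4.62 in A to E, which overlap the control. At 4900 µg/L they were 5.20 in A, 5.63 in B, 6.76 in C, 6.33 in D and 7.07 in E, all above every control and every 1960 µg/L library. At 12249 µg/L it reached 8.54 in A, 8.32 in B and 9.36 in C, above all libraries of 4900 µg/L. At 30623 µg/L it was at 8.66 in A, 7.46 in C and 7.56 in D, and of these only A lay within the range at 12249 µg/L. Its mean change against the control was 1.93 ± 0.23 (SE) at 4900, 4.47 ± 0.26 (SE) at 12249 and 3.63 ± 0.26 (SE) at 30623 µg/L. These correspond to 3.82-fold, 22.2-fold and 12.3-fold if the table is in log2. At 50, 125 and 314 µg/L its means were 4.34 ± 0.19, 4.63 ± 0.17 and 4.74 ± 0.26 (SD, n = 5). The difference between 314 and 50 µg/L, 0.40 ± 0.23 (SE), was not called (limma, adjusted p = 1.00). Each SE of this gene uses a spread shared by all 9 groups, and its SD was larger at 4900 µg/L (0.78) than at these low concentrations.

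Rsub_10772 had the highest control level of the 84, and its libraries agreed closely there. Its control values were 8.34 in A, 8.34 in B, 8.25 in C, 8.33 in D and 8.40 in E, a mean of 8.33 ± 0.06 (SD, n = 5). The mean was 8.29 ± 0.06 (SD, n = 5) at 50 µg/L and 8.41 ± 0.07 (SD, n = 5) at 125 µg/L. It was 8.48 ± 0.11 (SD, n = 5) at 314 µg/L, and at 784 and 1960 µg/L the means were 8.59 ± 0.11 and 8.70 ± 0.18 (SD, n = 5). At 784 and at 1960 µg/L all 5 libraries lay above all control libraries. Their lowest values were 8.51 and 8.57, against a highest control of 8.40. In these libraries the gene thus stood above the control below 4900 µg/L while staying within the limit of 0.4. Its change was 0.26 ± 0.14 (SE) at 784 and 0.36 ± 0.14 (SE) at 1960 µg/L. The rule used these libraries, and the share of all genes separated in this way was not counted. The difference between 314 and 50 µg/L, 0.19 ± 0.14 (SE), was not called (limma, adjusted p = 1.00). That SE uses a spread shared by all 9 groups, so it does not describe the scatter at 50 and 314 µg/L alone. The SD of this gene was 0.42 at 4900 and 0.48 at 30623 µg/L, well above those at 50 and 314 µg/L. At 4900 µg/L its values were 8.67 in A, 9.10 in B, 9.53 in C, 9.20 in D and 9.78 in E, of which only A lay within the range at 1960 µg/L, and B to E lay above it. It reached 10.2 in A, 10.5 in B and 10.9 in C at 12249 µg/L, and 10.9 in A, 9.91 in C and 10.3 in D at 30623 µg/L, where the groups overlap. Its change against the control was 0.92 ± 0.14 (SE), 2.16 ± 0.16 (SE) and 2.04 ± 0.16 (SE) at these 3 concentrations.

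**Figure D4:**
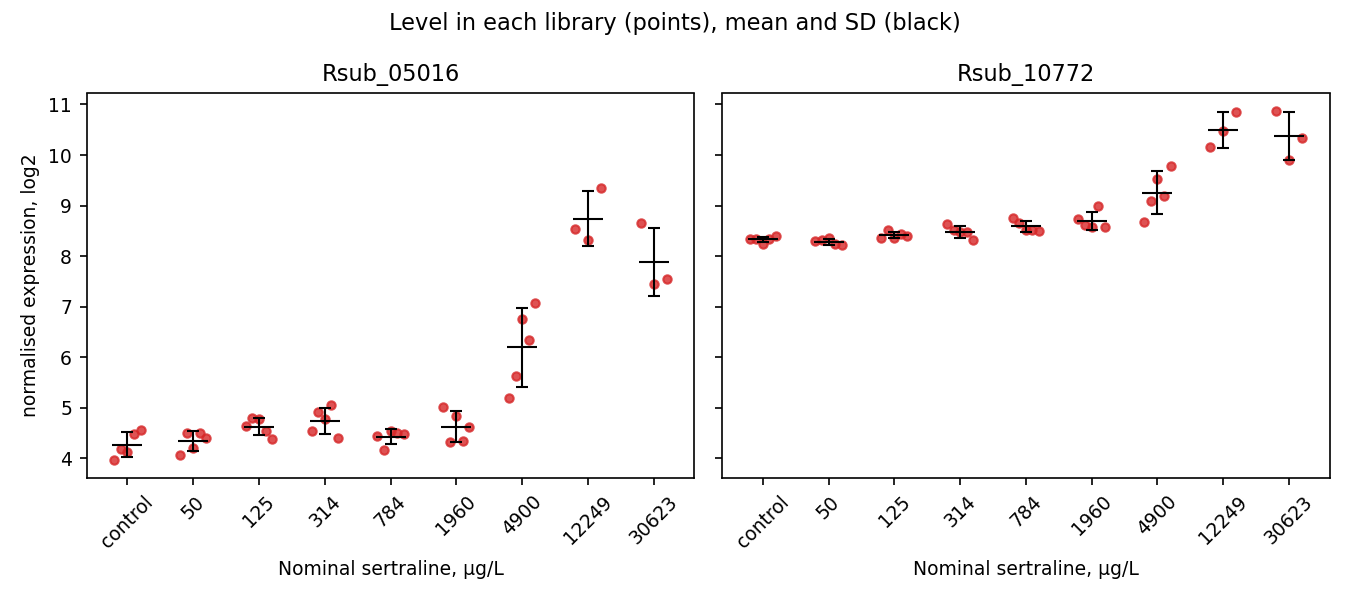
Points are single libraries of Rsub_05016 and Rsub_10772, as normalised expression on the log2 scale, with the group mean and SD in black (n = 5, and n = 3 at 12249 and 30623 µg/L). Both genes stand higher from 4900 µg/L on, and at 30623 µg/L replicate A, the leftmost point, is the highest of the 3.

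The mean of the 3 changes from 4900 µg/L up had a median of 1.42 over the 84 genes and a minimum of 0.88. It was at least 2 in 14 genes and at least 3 in 1, Rsub_05016, where it was 3.34.

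Some of the 84 genes carry consecutive identifier numbers, a property the rule did not use. There were 4 such pairs. Of the 90 measured genes numbered directly before or after one of the 84, counted once for each gene they adjoin, 8 (8.89%) were themselves among the 84, against 1.15% of all genes. The 147 genes of the set from 1960 µg/L formed 6 pairs, and 7.19% of their numbered neighbours were in the set, against 2.02% of all genes. The 747 genes formed 77 pairs, with 17.4% of neighbours in the set against 10.2% of all genes. The 94 of the set from 12249 µg/L formed 0. Neighbouring numbers were thus over-represented in the 147 and the 747 as well, and not in the 94. The table does not say whether neighbouring numbers are neighbours on a chromosome or share reads, and no test is given.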

How the data were processed

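The 84 genes and the lists used here were chosen with earlier results of these data known. RNA was measured by 3′ mRNA sequencing (QuantSeq, primed on poly(A) tails, with molecular identifiers). Per the submitters' processing notes, the authors' tools included DESeq2, featureCounts 2.0.6, STAR 2.7.10a, fastp 0.23.2, bcl2fastq 2.20.0 and SAMtools 1.15.1. Not given in the sources used here are their order and settings, the removal of duplicates, the genome build, the filter on genes and the transform. The authors deposited 1 table of normalised values on a log scale for 7291 genes, read here as log2. If the base differs, each fold changes with it. The table holds no counts, so depth is unknown and neither a count model nor a counting interval could be used.

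All 41 libraries entered 1 limma fit (3.58.1, R 4.3.3) with a mean per group, a trended prior, no filter and no block. Every SE and p-value of this fit uses 1 spread per gene shared by all 9 groups, as does the check below. Tests were two-sided, with Benjamini-Hochberg adjustment over 7291 genes and a threshold of 0.05. In a check on data of known answer, 200 of 7291 genes were changed, in the group at 314 µg/L only. The F test over 50, 125 and 314 µg/L recovered 32.8% of log2 changes of 0.5, 89.6% of 1 and 100% of 2. The named genes are the one with the highest mean change at 4900, 12249 and 30623 µg/L and the one with the highest control level. Alternatives were centred or quantile-scaled libraries, a minimum mean of 4, a replicate block, no trend, array weights, fits of only the groups compared, other limits of the rule, and leaving out each library. Steps between the highest concentrations without 1 library, and the comparison sets, were added after the data were seen. Gene lists by product name were not counted, since the identifiers carry no names. Plots used matplotlib 3.10.9 under Python 3.11.15.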

Additional observations from a re-analysis of the deposited data

Results flagged for a closer look

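Among 21 groups of 5 libraries examined (the median of the 84 genes and the 2 named genes in each of 7 groups), 1 had a library far from the other 4, where chance gives about 1.05. Replicate A at 125 µg/L had a median change of -0.0348 over the 84 genes, against 0.04 to 0.07 in the others. The groups at 12249 and 30623 µg/L have 3 libraries and were not examined this way.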

How the results depend on the processing

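The number of genes that met the rule was 84. It was 54 with limits of 0.3 and 0.8 and 44 with limits of 0.4 and 1.0, and leaving out single libraries gave 68 (without replicate A of 30623 µg/L) to 101 (without D of 1960 µg/L). Of those 68 genes 65 were among the 84, and of the 101 genes 81 were. No library of any kind moved it by over 1.5 times. Without single libraries, 82 to 84 of the 84 were called higher at 4900, 82 to 84 at 12249 and 73 to 84 at 30623 µg/L, and their median change ran from 0.97 to 1.21, from 1.63 to 2.05 and from 1.16 to 1.56. The number lower at 30623 than at 12249 µg/L ran from 55 to 76. Among 50, 125 and 314 µg/L 0 of the 84 genes were called in any fit run. Of all genes 25 were called there, but 0 without the intensity trend, 91 with array weights, 61 with only these groups, and 1 (without E of 314 µg/L) to 39 (without B of 125 µg/L) with a library left out. Counts from 1 to 14 came without any 1 library of 314 and without C, D or E of 50 µg/L. The causes of these changes were not tested. Over the other alternatives, 68 of 73 values for the set, and all 42 for the 2 named genes, kept within 1.5 times of the count or 1 SD of the value. With the replicate block 86 genes met the rule, all 84 were called at 4900, 12249 and 30623 µg/L, and 20 of all genes among the low groups. Letters were not taken to pair the libraries. Residuals of same-lettered libraries of different groups had a median correlation of 0.01 over 149 pairs, of which 19 exceeded 0.1. With different letters the median was -0.0009 over 595 pairs, of which 48 exceeded 0.1.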
